A study of Mus musculus with 9 samples.

Results

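The genes described here are those of the complement C1q chains (C1qa, C1qb and C1qc), of the enzymes and inhibitor of the C1 complex (C1ra, C1s1 and Serping1), of the components C3 and C4b, and of apolipoprotein E (Apoe). These 9 genes of the 53801 in the count table were found by their symbols, each of which occurred once. They were chosen by their CPM in these 3 groups, that is, with their levels known, so their own levels and fold changes are given as a description and without p-values. The data comprise 9 RNA-seq libraries of cultured mouse spermatogonial stem cells (SSCs). The donor mice carried floxed Prmt5 alleles (Prmt5 flox/flox) together with Rosa26-CreERT2. In these cells 4-hydroxytamoxifen (4OHT, 1 µM) activates a ubiquitously expressed Cre recombinase that deletes Prmt5, the gene of an arginine methyltransferase. By the study's account all 9 libraries come from 4OHT-treated cells, and 3 of them are from cells that received 4OHT alone (label 4OHT). The other libraries are from cells that also received a lentiviral construct, with 3 each for the catalytically dead PRMT5 (E444Q) and for PRMT5 (WT). The labels give these groups only as MU and OE, which were read as mutant and overexpressed wild type, and every statement on the constructs rests on this reading. No library of ethanol-treated cells was analysed here, so effects of the deletion itself cannot be read from these comparisons. No group is labelled as having received a control virus either. Differences from 4OHT alone that both constructs share therefore cannot be told apart from those of receiving a virus. The labels do not say whether the 3 libraries of a group came from separate cultures, and p-values then measure only the spread between these libraries, which may be technical.

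Complement is a cascade of plasma proteins that mark particles for uptake. C1q, a complex of the A, B and C chains, recognizes targets and carries the proteases C1r and C1s, which cleave C4 and C2, and the resulting enzyme cleaves C3, the point at which all routes of activation meet. Serping1 encodes the C1 inhibitor, which inactivates C1r and C1s. C1q is made mainly by tissue macrophages and dendritic cells, whereas C3, C4 and the C1 proteases are also made by liver and by fibroblasts. ApoE, a carrier of cholesterol and other lipids, is made by macrophages and many other cell types.

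Total counts ranged from 78751996 to 365719548 per library, and all 3 PRMT5 (E444Q) libraries were deeper than all others. In every library a value of 4 counts was 1.35 to 1.84 times as frequent as the mean of its neighbours 3 and 5, so 1 read pair was taken as about 4 counts, and 3 read pairs correspond to 0.0317 to 0.158 CPM (counting error only). CPM are counts scaled to the library size with edgeR's TMM factors, and values are mean ± SD of 3 libraries. Prmt5 itself averaged 30.3 ± 1.92 CPM in cells given 4OHT alone, 146.1 ± 0.957 CPM in PRMT5 (E444Q) cells and 1076 ± 7.61 CPM in PRMT5 (WT) cells (each SD, n = 3), so the constructs also differed in the amount of Prmt5 mRNA. These values are of mRNA only, and the study reports from western blots that either construct restored the PRMT5 protein level. The 12 spermatogonial markers were all measured, and with either construct 7 were higher and 4 lower than with 4OHT alone (adjusted p under 0.05 from edgeR). Of all 22452 genes tested, 57.8% passed this threshold with PRMT5 (WT) and 56% with PRMT5 (E444Q). The markers' log2 fold changes ranged from -2.09 to 2.33 with PRMT5 (WT) and from -2.13 to 2.32 with PRMT5 (E444Q). Ddx4, 1 of those with a higher mean with either construct, was at 297.7, 550.9 and 590.3 CPM in the 4OHT-alone, PRMT5 (E444Q) and PRMT5 (WT) groups. Genes of fibroblasts, the cell type used as feeder layer in the study's other SSC cultures, and of macrophages were also present, and their levels are given beside the results they move with. In bulk RNA, fewer cells of a type and less RNA per cell cannot be told apart.

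All 3 C1q chains were lowly expressed and were lower with either construct than with 4OHT alone. The genes lie next to each other on the reverse strand of chromosome 4 of GRCm38, with C1qb (ENSMUSG00000036905) from 136880129 to 136886187, C1qc (ENSMUSG00000036896) from 136889804 to 136893065 and C1qa (ENSMUSG00000036887) from 136895917 to 136898803. C1qa, the A chain, was at 1.78, 2.52 and 2.33 CPM in the libraries with 4OHT alone, at 0.531, 0.304 and 0.349 CPM with PRMT5 (E444Q) and at 0.234, 0.342 and 0.861 CPM with PRMT5 (WT). C1qb, the B chain, was at 2.02, 1.54 and 2.10 CPM with 4OHT alone, at 0.693, 0.111 and 0.383 CPM with PRMT5 (E444Q) and at 0.615, 0.363 and 0.421 CPM with PRMT5 (WT). C1qc, the C chain, was at 2.53, 2.33 and 1.92 CPM with 4OHT alone, at 0.374, 0.301 and 0.395 CPM with PRMT5 (E444Q) and at 0.505, 0.246 and 0.134 CPM with PRMT5 (WT). For each chain, every library with 4OHT alone was above every library with a construct, while the groups of the constructs overlapped. The counts behind these values were small. C1qa had 19, 32 and 135 counts in the PRMT5 (WT) libraries, or about 4.75, 8.00 and 33.75 read pairs, and 135, 211 and 209 counts with 4OHT alone.

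The log2 fold change of PRMT5 (WT) against 4OHT alone was -2.16 (standard error 0.41) for C1qa, -2.02 (standard error 0.50) for C1qb and -2.99 (standard error 0.40) for C1qc. Against 4OHT alone, PRMT5 (E444Q) gave -2.49 for C1qa, -2.27 for C1qb and -2.66 for C1qc, with standard errors from 0.38 to 0.49. Single libraries moved these sizes but not their direction. Without the third PRMT5 (WT) library, the value for C1qa with PRMT5 (WT) was -2.95, and without the first it was -3.60 for C1qc. Without the first PRMT5 (E444Q) library, the value for C1qb with PRMT5 (E444Q) was -2.95. Summed over the chains, C1q amounted to 6.36 ± 0.035 CPM in 4OHT alone, 1.15 ± 0.44 CPM in PRMT5 (E444Q) and 1.24 ± 0.25 CPM in PRMT5 (WT) cells (each SD, n = 3), so that 4OHT alone was 5.54 and 5.12 times as high. The single chains had SDs of 13.8% to 17.4% of their means with 4OHT alone, so the small SD of their sum overstates its precision. Between PRMT5 (E444Q) and PRMT5 (WT), the log2 fold changes were -0.33 for C1qa, -0.25 for C1qb and 0.32 for C1qc, each smaller than its standard error of 0.41, 0.49 and 0.39. The sign of each turned when 1 library was left out. For C1qa it turned to 0.44 without the third PRMT5 (WT) library, for C1qb to 0.21 without the second PRMT5 (E444Q) library, and for C1qc to -0.064 without the third PRMT5 (WT) library. Per kilobase of exon, the level with 4OHT alone was 2.13 CPM for C1qa, 1.73 CPM for C1qb and 1.17 CPM for C1qc.

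The sequences upstream of C1qb and C1qc are shown because these genes are neighbours and were lower in the same libraries. They are the 250 bases before the RefSeq start, on the reverse strand of GRCm38.p6, at chr4:136886201-136886450 for C1qb and chr4:136892915-136893164 for C1qc. Capitals mark matches on either strand to GCTGAC, a half-site of MAF factors (GTCAGC on the other strand), and to GAGGAA, a core of PU.1 sites (TTCCTC on the other strand).
C1qb: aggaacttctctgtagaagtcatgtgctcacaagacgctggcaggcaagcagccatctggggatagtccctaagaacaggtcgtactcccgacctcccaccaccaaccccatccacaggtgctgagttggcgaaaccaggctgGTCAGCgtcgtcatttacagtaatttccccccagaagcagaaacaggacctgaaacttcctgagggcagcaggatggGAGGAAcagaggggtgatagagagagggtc
C1qc: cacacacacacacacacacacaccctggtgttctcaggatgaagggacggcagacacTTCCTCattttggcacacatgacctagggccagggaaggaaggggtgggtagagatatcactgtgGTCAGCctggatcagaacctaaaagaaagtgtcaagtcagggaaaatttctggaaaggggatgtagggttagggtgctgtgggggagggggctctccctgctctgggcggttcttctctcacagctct
Each window held 1 match to the MAF half-site, which began 107 bases before the start in C1qb and 128 bases before it in C1qc, and 1 match to the PU.1 core. Of 32851 windows of the same length upstream of mouse genes, 12.9% held the MAF half-site and 23.3% the PU.1 core. The motifs were chosen after the sequences were read, so these shares are no chance rate for the matches shown. A match is not evidence of binding. Maf was lower and Spi1, the gene of PU.1, was higher with either construct than with 4OHT alone, and the part of these factors in the levels of C1q was not tested. Of the 9 genes, 6 had an entry in the RefSeq promoter table. C1qa, C4b and Serping1 had none.

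Apoe (ENSMUSG00000002985, chromosome 7 of GRCm38, 19696109 to 19699188, reverse strand) was, like C1q, lower with either construct than with 4OHT alone, at 664 counts or more in every library. It was at 53.0, 54.9 and 47.3 CPM with 4OHT alone, at 11.4, 11.0 and 10.9 CPM with PRMT5 (E444Q) and at 8.17, 11.2 and 10.1 CPM with PRMT5 (WT). The libraries with 4OHT alone were all above those with a construct, and the groups of the constructs overlapped. The log2 fold change against 4OHT alone was -2.39 (standard error 0.10) for PRMT5 (WT) and -2.22 (standard error 0.10) for PRMT5 (E444Q), so that the level with 4OHT alone was 5.25 and 4.65 times as high. Between PRMT5 (E444Q) and PRMT5 (WT) it was 0.17 (standard error 0.10), and from 0.063 to 0.27 over all alternative settings and left-out libraries. Per kilobase of exon, Apoe with 4OHT alone (24.2 CPM) was above C3 (19.3 CPM) and the other genes described here, whereas with PRMT5 (WT) it (4.60 CPM) was below C3 (21.0 CPM), Serping1 (13.1 CPM) and C1s1 (7.22 CPM).
The 250 bases before the first of the 3 RefSeq starts of Apoe, at chr7:19699189-19699438 on the reverse strand, are given for comparison with C1q, with the same motifs in capitals.
Apoe: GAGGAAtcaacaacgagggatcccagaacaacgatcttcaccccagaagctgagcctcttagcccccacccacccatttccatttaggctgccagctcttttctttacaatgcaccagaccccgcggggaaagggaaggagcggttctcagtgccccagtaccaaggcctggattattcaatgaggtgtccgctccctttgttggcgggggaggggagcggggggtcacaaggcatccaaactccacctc
This window held the PU.1 core at its first base and no match to the MAF half-site.

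The Apoe locus also holds the genes of the small apolipoproteins C1, C2 and C4. These genes were near the detection limit and far below the level of Apoe. Like that of Apoe, the mean of Apoc2 was lower with either construct, whereas the mean of Apoc1 was higher. Apoc1, a modulator of lipoprotein metabolism, was at 0.335, 0.553 and 0.479 CPM in the 4OHT-alone, PRMT5 (E444Q) and PRMT5 (WT) groups, and the log2 fold change between PRMT5 (WT) and 4OHT alone, 0.51, did not pass the threshold (adjusted p = 0.299 from edgeR). Apoc2, the activator of lipoprotein lipase, was at 0.813, 0.212 and 0.379 CPM (log2 fold change -1.06 for PRMT5 (WT) against 4OHT alone, adjusted p = 0.264 from edgeR). Apoc4 had 0, 0 and 1 counts with 4OHT alone, 4, 21 and 16 counts with PRMT5 (E444Q) and 22, 37 and 84 counts with PRMT5 (WT).

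**Figure D1:**
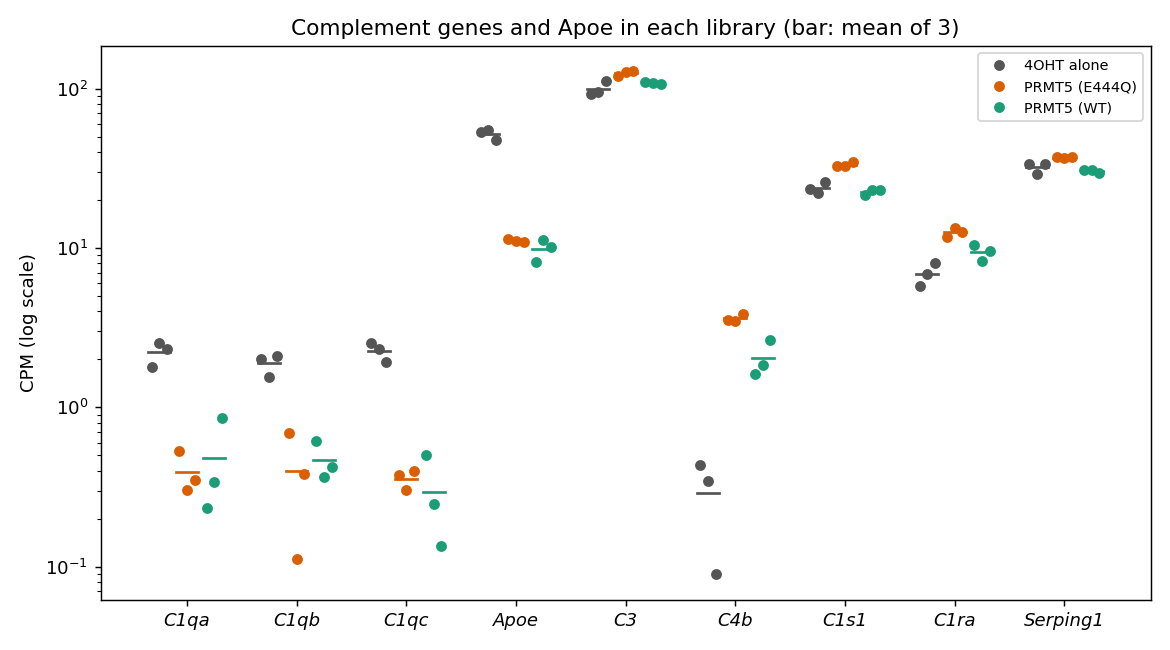
CPM on a log scale of the 9 genes in each of the 9 libraries, with a bar at the mean of the 3 libraries of a group. The C1q chains and Apoe lie highest with 4OHT alone (51.7 CPM on average for Apoe), C4b lowest (0.290 CPM), and the group means of C3 (99.3 to 125.4 CPM), C1s1 (22.6 to 33.3 CPM) and Serping1 (30.5 to 36.9 CPM) differ least between the groups.

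C3 (ENSMUSG00000024164, chromosome 17, 57203970 to 57228136), the central component, was the gene of the group with the highest CPM and differed little between groups. It was at 92.2, 94.7 and 111.0 CPM with 4OHT alone, at 120.7, 126.8 and 128.8 CPM with PRMT5 (E444Q) and at 109.6, 108.4 and 106.8 CPM with PRMT5 (WT). The PRMT5 (E444Q) libraries were above all others, and the other groups overlapped. The log2 fold change was 0.12 (standard error 0.064) for PRMT5 (WT) against 4OHT alone, 0.34 (standard error 0.064) for PRMT5 (E444Q) against 4OHT alone and 0.21 (standard error 0.064) for PRMT5 (E444Q) against PRMT5 (WT).
The 250 bases before the start of C3, at chr17:57228137-57228386 on the reverse strand, hold a match, in capitals, to TTGCNNAA, the core of sites for C/EBP factors, which are known regulators of C3 in inflammation. The match began 45 bases before the start, and 9.56% of the 32851 windows held one. This motif was also chosen after the sequences were read, so that share is no chance rate for the match. Of the windows of the 2 RefSeq starts of C1s1, 1 held a match, and a match is not evidence of binding.
C3: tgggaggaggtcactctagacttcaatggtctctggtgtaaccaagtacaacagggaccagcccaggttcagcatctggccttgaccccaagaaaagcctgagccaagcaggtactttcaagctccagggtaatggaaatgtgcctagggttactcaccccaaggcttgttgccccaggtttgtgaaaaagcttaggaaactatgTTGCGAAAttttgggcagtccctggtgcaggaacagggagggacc

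C4b (ENSMUSG00000073418, chromosome 17, 34728380 to 34743882), whose product is cleaved by C1s, went the opposite way to C1q. It was at 0.435, 0.347 and 0.0892 CPM with 4OHT alone, at 3.51, 3.48 and 3.83 CPM with PRMT5 (E444Q) and at 1.62, 1.84 and 2.63 CPM with PRMT5 (WT). The groups did not overlap, with PRMT5 (E444Q) highest and 4OHT alone lowest. The counts with 4OHT alone were 33, 29 and 8, that is, the last library held about 2.00 read pairs. The log2 fold change against 4OHT alone was 3.65 (standard error 0.37) for PRMT5 (E444Q) and 2.83 (standard error 0.37) for PRMT5 (WT), and 0.82 (standard error 0.31) between the constructs. Its paralog C4a, in the same gene cluster, was at 3.32, 3.80 and 3.01 CPM in the 4OHT-alone, PRMT5 (E444Q) and PRMT5 (WT) groups and did not pass the threshold in any comparison (log2 fold changes 0.19 and -0.14 against 4OHT alone, adjusted p = 0.290 and 0.441 from edgeR). Of the 100-base windows of the longest C4b transcript, 16.5% also occur in C4a transcripts, and the sources used here do not state how reads with several alignments were counted, so part of the counts may be divided between the paralogs. Of the other complement genes of this cluster, Cfb, the protease of the alternative pathway, rose by 1.34 with PRMT5 (WT) and by 0.91 with PRMT5 (E444Q) (adjusted p = 1.34e-06 and 5.64e-05 from edgeR). C2, the protease subunit that pairs with C4b, fell by 0.42 and by 0.34 (adjusted p = 0.00273 and 0.00994 from edgeR).

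The genes of the C1 proteases and their inhibitor were highest with PRMT5 (E444Q) in every library. C1ra (ENSMUSG00000055172, chromosome 6, 124512405 to 124523443), which encodes C1r, was at 5.75, 6.88 and 8.00 CPM with 4OHT alone, at 11.7, 13.4 and 12.6 CPM with PRMT5 (E444Q) and at 10.4, 8.26 and 9.54 CPM with PRMT5 (WT). C1s1 (ENSMUSG00000038521, chromosome 6, 124530345 to 124542359), which encodes C1s, was at 23.5, 22.1 and 25.8 CPM with 4OHT alone, at 32.5, 32.7 and 34.7 CPM with PRMT5 (E444Q) and at 21.4, 23.2 and 23.2 CPM with PRMT5 (WT). Serping1 (ENSMUSG00000023224, chromosome 2, 84765387 to 84775444) was at 33.6, 29.1 and 33.8 CPM with 4OHT alone, at 37.0, 36.4 and 37.3 CPM with PRMT5 (E444Q) and at 30.7, 31.1 and 29.6 CPM with PRMT5 (WT). For C1s1 and Serping1, 4OHT alone and PRMT5 (WT) overlapped, whereas for C1ra no group overlapped another.
Relative to PRMT5 (WT), the PRMT5 (E444Q) libraries gave a log2 fold change of 0.56 (standard error 0.070) for C1s1, 0.42 (standard error 0.12) for C1ra and 0.28 (standard error 0.065) for Serping1. Against 4OHT alone, the values for PRMT5 (E444Q) were 0.48 for C1s1, 0.87 for C1ra and 0.20 for Serping1, and those for PRMT5 (WT) were -0.075 for C1s1, 0.45 for C1ra and -0.080 for Serping1. The 2 small negative values turned to 0.014 and 0.008 when libraries were scaled by their totals without TMM, which moved the median of all genes from 0.018 to 0.11 in this comparison and from 0.043 to 0.16 for PRMT5 (E444Q) against 4OHT alone.
C1ra and C1s1 have close paralogs in the same cluster. Of the 100-base windows of their longest transcripts, 35.9% of those of C1ra occur in C1rb or Gm18840 and 7.90% of those of C1s1 in C1s2, so their counts are uncertain to that extent. C1rb was at 0.949, 1.72 and 1.27 CPM in the 4OHT-alone, PRMT5 (E444Q) and PRMT5 (WT) groups, and C1s2 at 3.01, 3.33 and 2.38 CPM. Between the constructs neither passed the threshold (log2 fold changes 0.44 and 0.49, adjusted p = 0.509 and 0.179 from edgeR). The antisense gene Gm16567 overlaps C1s1 and had 18 counts over all 9 libraries, against 40527 for C1s1.

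**Figure D2:**
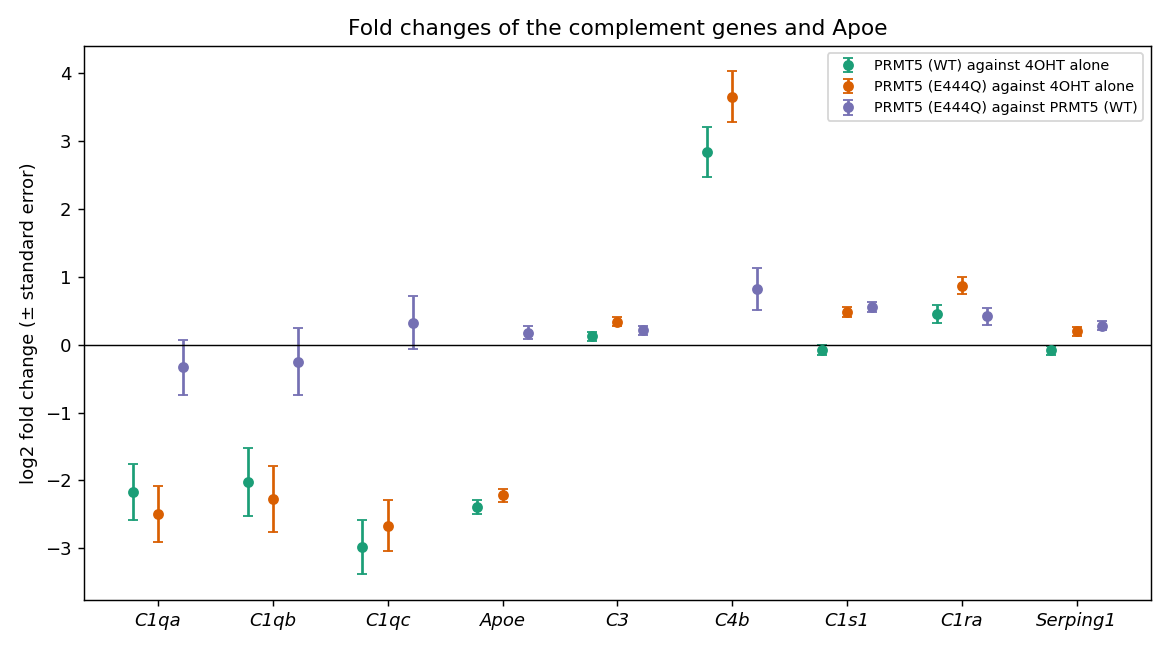
Log2 fold change with its standard error of the 9 genes in the 3 comparisons. Both comparisons with 4OHT alone are below -2 for the C1q chains and Apoe and above 2.8 for C4b, while the comparison of the constructs lies between -0.33 (C1qa) and 0.82 (C4b).

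All 9 genes passed edgeR's filter on low counts, and their calls are counted here only as a description, since they were chosen with these values known. For PRMT5 (WT) against 4OHT alone, 6 of the 9 had an adjusted p under 0.05 (2 higher, 4 lower), where 57.8% of the 22452 genes tested did (29.9% higher and 27.9% lower). For PRMT5 (E444Q) against 4OHT alone it was 9 of 9 (5 higher, 4 lower), where 56% of all genes did (29.5% higher and 26.5% lower). Between PRMT5 (E444Q) and PRMT5 (WT) it was 2 of 9, C1s1 and Serping1, both higher with PRMT5 (E444Q), where 3.17% of all genes did (2.12% higher and 1.06% lower). The groups did not overlap in 6, 9 and 5 of the 9 genes in these comparisons, where this held for 61.6%, 63.9% and 25.9% of all genes. The 5 genes between the constructs were C3, C4b, C1s1, C1ra and Serping1, each higher with PRMT5 (E444Q), a direction that 13% of all genes shared. The median log2 fold change of the 9 genes was -0.080, 0.20 and 0.28 in the respective comparisons, against 0.018, 0.043 and 0.008 for all genes.

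The remaining complement genes, taken from lists of components, regulators and receptors, were tested in the same model. Of the 54 genes listed, 45 passed the filter on low counts, and for PRMT5 (WT) against 4OHT alone 12 rose, 16 fell and 17 did not pass the threshold. For PRMT5 (E444Q) against 4OHT alone 14 rose and 16 fell (15 rose and 11 fell without TMM). Of all 22452 genes tested, 57.8% passed the threshold with PRMT5 (WT) (29.9% higher, 27.9% lower). With PRMT5 (E444Q), 56% did (29.5% higher, 26.5% lower), and between the constructs 3.17% did (2.12% higher, 1.06% lower). These shares stand beside the counts of every list below. Among the components at a mean of at least 1 CPM, the largest changes past the threshold with PRMT5 (WT) were in Masp1, a protease of the lectin pathway, which fell from 31.3 ± 4.10 to 6.45 ± 0.69 CPM (SD, n = 3, log2 fold change -2.28, adjusted p = 6.93e-10 from edgeR), and in Cfb. Colec12, a scavenger receptor of the collectin family, fell by 1.18, and C8b, a subunit of the membrane attack complex, rose by 1.17 (adjusted p = 1.23e-10 and 7.73e-06 from edgeR). Of the 18 components tested, 4 rose and 5 fell. The genes of C6, C8a, C9, Cfd, Mbl1 and Fcnb did not pass the filter, with at most 57 counts in a library (C8a).

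Among the 16 regulators tested, 3 rose and 7 fell with PRMT5 (WT) against 4OHT alone. Thbd, the gene of thrombomodulin, fell from 81.9 ± 3.93 to 23.0 ± 1.57 CPM (SD, n = 3, log2 fold change -1.84, adjusted p = 4.52e-11 from edgeR). Clu, the gene of clusterin, which inhibits the terminal complex, fell by 1.74, and Cd59a, the gene of a membrane inhibitor of that complex, by 1.27 (adjusted p = 7.85e-08 and 2.56e-06 from edgeR). With PRMT5 (E444Q) against 4OHT alone, 3 rose and 6 fell.

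Among the 3 complement lists, that of the receptors held the largest increases of single genes, while its summed level was lower with either construct. The 12 genes summed to 2962 to 3629 CPM with 4OHT alone, 1542 to 1591 CPM with PRMT5 (E444Q) and 1583 to 1626 CPM with PRMT5 (WT). The list also holds C1qbp, Calr and Lrp1, and its sum is not split by gene here. That sum says little of C5ar1 and C3ar1, each at 11.1 CPM or less in every library. Of the 11 tested, 5 rose and 4 fell with PRMT5 (WT) against 4OHT alone, and 5 rose and 5 fell with PRMT5 (E444Q). C5ar1, the receptor for C5a, was at 0.844, 0.323 and 0.647 CPM with 4OHT alone, at 3.97, 4.40 and 4.49 CPM with PRMT5 (E444Q) and at 11.1, 10.2 and 9.78 CPM with PRMT5 (WT), an increase of 4.10 on the log2 scale from 4OHT alone to PRMT5 (WT) (adjusted p = 3.04e-09 from edgeR). Itgb2 and Itgam, whose products form complement receptor 3 for cleaved C3, rose by 4.31 and 3.60 (adjusted p = 3.90e-12 and 1.79e-08 from edgeR). C3ar1, the receptor for C3a, fell by 2.08, from 3.51 ± 0.75 to 0.831 ± 0.23 CPM (SD, n = 3, adjusted p = 7.51e-06 from edgeR).
Between PRMT5 (E444Q) and PRMT5 (WT), 3 of the 45 genes were higher and 2 lower, where 2.12% of all genes were higher and 1.06% lower. C5ar1 and Itgb2 were the lower ones, with log2 fold changes of -1.27 and -1.21 (adjusted p = 0.00168 and 1.58e-05 from edgeR). C3ar1, Masp1 and Colec12 were higher, by 1.15, 0.44 and 0.22 (adjusted p = 0.0204, 0.0459 and 0.0233 from edgeR). Leaving out single libraries gave between 2 and 7 calls, and 0 were higher and 2 lower without PRMT5 (E444Q) replicate 2, PRMT5 (E444Q) replicate 3 or PRMT5 (WT) replicate 3.

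**Figure D3:**
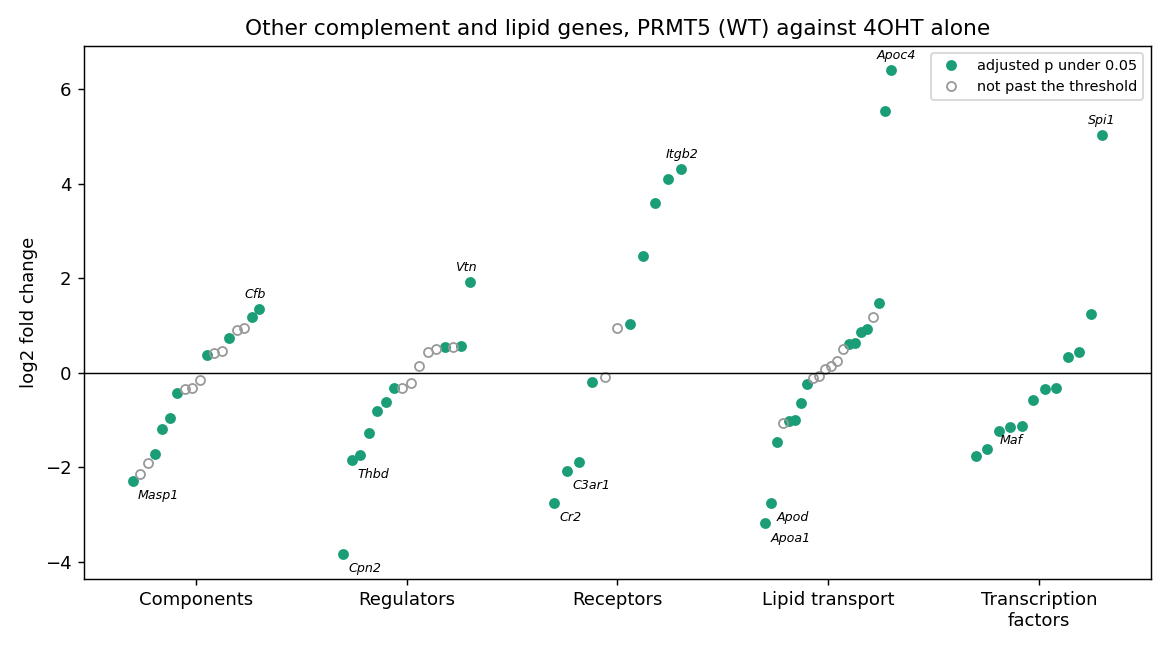
Log2 fold change of PRMT5 (WT) against 4OHT alone for each gene tested of the lists of complement components, regulators and receptors, of lipid transport and of transcription factors, ordered within each list, with filled points for adjusted p under 0.05. Components reach from -2.28 (Masp1) to 1.34 (Cfb), and receptors rise to 4.31 (Itgb2). The fitted value of Apoc4, with at most 1 count per library in 4OHT alone, depends on the prior count, and Cpn2, Vtn, Cr2 and Apoa1 averaged under 1 CPM.

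Genes that handle lipids along with ApoE were also spread to both sides. Of the 22 tested, 7 rose and 7 fell with PRMT5 (WT) against 4OHT alone, with a median of 0.12, and 8 rose and 7 fell with PRMT5 (E444Q). Among all genes, 29.9% rose and 27.9% fell with PRMT5 (WT), and 29.5% rose and 26.5% fell with PRMT5 (E444Q). Lpl, the gene of lipoprotein lipase, was at 5.41 ± 0.39 CPM in 4OHT alone, 80.6 ± 2.47 CPM in PRMT5 (E444Q) and 250.6 ± 2.38 CPM in PRMT5 (WT) cells (SD, n = 3 each), an increase of 5.53 on the log2 scale from 4OHT alone to PRMT5 (WT) (adjusted p = 1.87e-15 from edgeR). Nr1h3, the gene of the oxysterol receptor LXR alpha, rose by 1.47 (adjusted p = 6.34e-06 from edgeR). Apod, the gene of apolipoprotein D, fell by 2.76 (adjusted p = 1.04e-09 from edgeR). Between the constructs, 0 of the 22 were higher and 6 lower with PRMT5 (E444Q), where 2.12% of all genes were higher and 1.06% lower. Among these 6 were Lpl (-1.64) and Pltp, the gene of a phospholipid transfer protein (-0.78, adjusted p = 9.25e-10 and 3.12e-05 from edgeR).

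Of 12 genes of transcription factors known to act in macrophages or on complement genes, 4 rose and 8 fell with PRMT5 (WT) against 4OHT alone, and 3 rose and 8 fell with PRMT5 (E444Q). Maf was at 5.71, 5.86 and 5.66 CPM with 4OHT alone, at 2.37, 1.79 and 2.07 CPM with PRMT5 (E444Q) and at 1.77, 1.47 and 2.34 CPM with PRMT5 (WT). With PRMT5 (WT) against 4OHT alone it fell by 1.62 on the log2 scale (adjusted p = 3.19e-06, edgeR). Spi1, which encodes PU.1, and Irf8, both regulators of myeloid genes, rose by 5.03 and 1.24 (adjusted p = 7.33e-10 and 6.85e-09 from edgeR). Between the constructs, Spi1 was lower with PRMT5 (E444Q) (-0.99, adjusted p = 0.00903 from edgeR), and no other of the 12 passed the threshold.

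Since many macrophages make C1q and ApoE, the levels of macrophage genes were set beside theirs. The summed level of 18 general macrophage genes was 195.7 to 208.7 CPM with 4OHT alone, 1218 to 1253 CPM with PRMT5 (E444Q) and 2453 to 2567 CPM with PRMT5 (WT), so it was highest where C1q and Apoe were low. Of these genes, 15 rose and 0 fell with PRMT5 (WT) against 4OHT alone, and Fcgr1, Aif1 and Cx3cr1 did not pass the threshold and were each under 0.6 CPM in every group. With PRMT5 (E444Q) against 4OHT alone, 15 rose and 1 fell. Averaged over all 9 libraries, Lyz2 and Cybb were the most abundant. They were at 151.3 and 2.40 CPM with 4OHT alone and 1878 and 178.7 CPM with PRMT5 (WT). Lyz2 made up most of the sum, which averaged 200.3 CPM with 4OHT alone and 2504 CPM with PRMT5 (WT). The sum of the C1q chains divided by the level of Csf1r, the gene of the macrophage growth factor receptor, was 4.78 to 6.40 with 4OHT alone, 0.0858 to 0.179 with PRMT5 (E444Q) and 0.0421 to 0.0716 with PRMT5 (WT). The size of this difference depended on the gene used as divisor. With Cd68 the ratio was 0.736 to 0.843 with 4OHT alone and 0.0244 to 0.0352 with PRMT5 (WT). With Ptprc it was 7.62 to 10.3 and 0.0464 to 0.0606.
Markers of tissue-resident macrophages that make C1q were sparse. Of 14, 11 were tested, of which 2 rose and 6 fell with PRMT5 (WT) against 4OHT alone, with a median log2 fold change of -1.11. With PRMT5 (E444Q) 2 rose and 6 fell as well. Cd163, Folr2 and Timd4 did not pass the filter, with at most 36, 22 and 4 counts in any library. The sum of the list was 608.2 to 727.0 CPM with 4OHT alone, 499.9 to 508.1 CPM with PRMT5 (E444Q) and 404.1 to 418.9 CPM with PRMT5 (WT), and it was made up mostly of Gas6 and Selenop, which many cell types express (566.1 and 74.4 CPM with 4OHT alone). The 10 alveolar macrophage markers in the table, led by Chil3 and Car4, summed to 41.1 to 51.6 CPM with 4OHT alone, 1036 to 1081 CPM with PRMT5 (E444Q) and 1836 to 2237 CPM with PRMT5 (WT), and 8 rose and 1 fell with PRMT5 (WT). The part of these cell types in the levels of C1q and Apoe was not tested.

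Fibroblasts also make C3, C1r, C1s and C1 inhibitor, and the levels of fibroblast genes differed between the groups too. The 18 genes summed to 12483 to 14914 CPM with 4OHT alone, 6882 to 6946 CPM with PRMT5 (E444Q) and 5381 to 5494 CPM with PRMT5 (WT). With PRMT5 (WT) against 4OHT alone, 1 rose and 16 fell, with a median of -1.14, whereas C3, C1s1 and Serping1 lay between -0.080 and 0.12 and C1ra was at 0.45. Between PRMT5 (E444Q) and PRMT5 (WT), 15 of the 18 were higher and 0 lower, with a median of 0.38, beside 0.56 for C1s1, 0.42 for C1ra, 0.28 for Serping1 and 0.21 for C3. Averaged over all libraries, the most abundant were Fn1 and Col1a2, at 4957 and 1458 CPM with 4OHT alone. Their log2 levels in PRMT5 (E444Q) exceeded those in PRMT5 (WT) by 0.29 and 0.42 (adjusted p = 0.0401 and 0.000773 from edgeR). The part of fibroblast RNA in the levels of these complement genes was not tested.

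**Figure D4:**
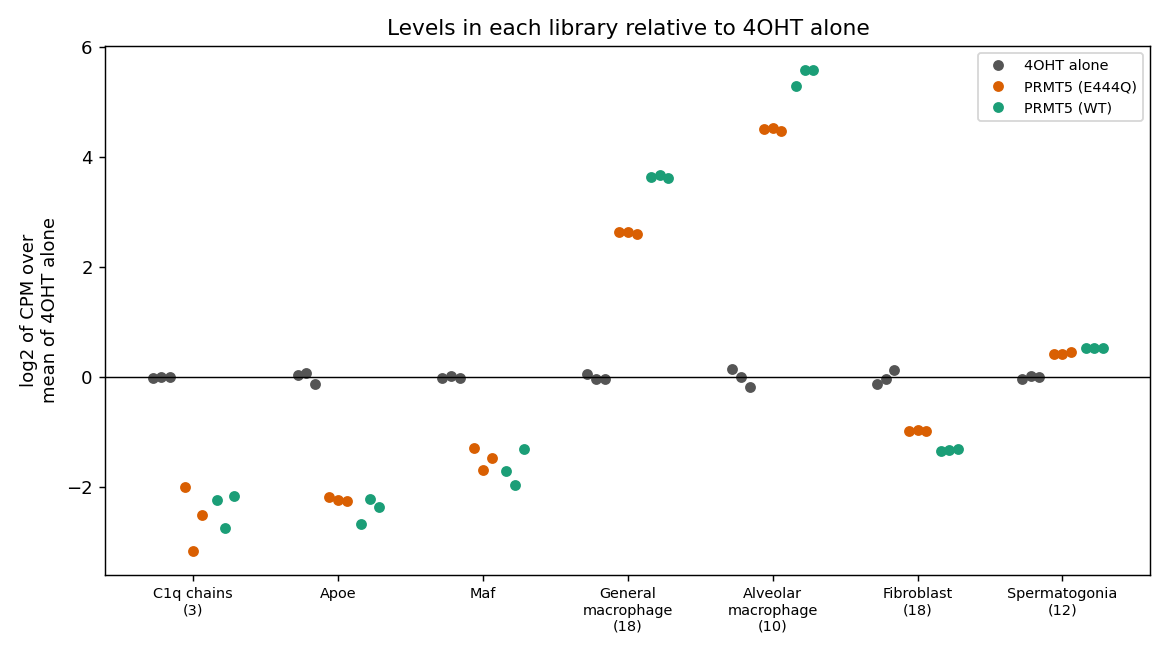
Log2 of the level in each library relative to the mean of 4OHT alone, for the sum of the C1q chains, for Apoe, for Maf, and for the summed CPM of the marker lists (number of genes in brackets). C1q, Apoe and Maf lie below 0 in all libraries with a construct, the general and alveolar macrophage lists lie above 0 and higher with PRMT5 (WT), and the fibroblast list lies below 0 and lower with PRMT5 (WT).

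Over the 9 libraries, which form 3 groups, the log2 CPM of Apoe correlated with that of C1qa, C1qb and C1qc at Pearson's r of 0.92, 0.81 and 0.92, and the chains correlated with each other at 0.75 to 0.82. C1s1 and Serping1 correlated at 0.92, and C3 and C1ra at 0.94. These values describe how the libraries fall into groups, and many genes shared such a profile. Of 15411 genes with at least 1 CPM on average, 1110 correlated above 0.95 with the mean profile of the C1q chains, 2398 with Apoe and 6 with C3. The nearest were L3mbtl3, Sema3e and Scn4b (0.990, 0.988 and 0.988) for C1q, Hadh, Prr13 and Gm7292 (0.999, 0.998 and 0.997) for Apoe, and Amt and Atp2c2 (0.98 and 0.97) for C3.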

How the data were processed

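RNA-seq counts were analysed for 9 libraries of mouse SSCs, grouped by their sample labels (3 per group). The table the authors deposited holds 53801 genes as unnormalized, whole-number counts. Per the study's methods and the submitters' processing notes, trimming used BBmap and Trimmomatic 0.39, alignment to GRCm38 used HISAT2 2.2.1, and StringTie 2.2.1 quantified the genes. How these became whole numbers, strandedness and the counting of reads with several alignments are not given in the sources used here. Totals ranged from 78751996 to 365719548 counts.

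Genes were filtered with filterByExpr (minimum count 10, minimum total 15), which left 22452, and tested in R 4.3.3 with edgeR 4.0.16 (TMM, quasi-likelihood test, all 9 libraries, group as the only factor, Benjamini-Hochberg adjustment, threshold 0.05). The common biological coefficient of variation was 0.155. The steps were tested on simulated data. Alternatives were DESeq2 1.42.0, library totals, no filter, a replicate block, counts divided by 4, only the groups compared, a 1.5-fold threshold and leaving out each library. Positions, exon lengths and transcripts came from GENCODE vM21 and upstream sequences from RefSeq (GRCm38.p6).

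The 9 genes and the gene lists (components, regulators, receptors, lipid transport, transcription factors, general, resident and alveolar macrophage, fibroblast, testis somatic, spermatogonia) were chosen with earlier results of these data known. The motifs were chosen after the sequences were read. Named were all 9 genes, the genes in their clusters, per pathway list up to 4 called genes with the largest change for PRMT5 (WT) against 4OHT alone and up to 2 between the constructs (mean of at least 1 CPM, no overlap), the 3 genes with the most similar profile, and the most abundant markers with those at or near 0. Itgam has 2 identifiers, of which the one in GENCODE was used. Some genes that this rule names are not reported here.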

Additional observations from a re-analysis of the deposited data

How the results depend on the processing

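The log2 fold changes of the C1q chains, Apoe and C4b against 4OHT alone kept their direction in all alternatives and without any single library, with Apoe between -2.48 and -2.27 for PRMT5 (WT) and between -2.29 and -2.11 for PRMT5 (E444Q). The 9 genes gave no reversal of a value past the threshold. With a 1.5-fold threshold the calls were 7918 for PRMT5 (WT) against 4OHT alone, 7382 for PRMT5 (E444Q) against 4OHT alone and 241 between the constructs (93 higher, 148 lower), in place of 12967, 12571 and 712 (475 higher, 237 lower), and 3 complement genes outside the 9 were called between the constructs in place of 5. Between the constructs, a model of only the 6 libraries compared called 1565 genes (822 higher, 743 lower) and DESeq2 called 1112. Without single libraries the calls between the constructs ranged from 400 to 1099 over all genes and from 2 to 7 for the complement genes, so counts in this comparison depend on the libraries used. The deviations of same-numbered libraries from their group means had correlations from -0.079 to 0.035, none of 9 above 0.1, and 1 of 9 libraries correlated best with its own number, so the numbers were not taken as pairs. With the replicate block, 12807, 12443 and 674 genes were called, and 29, 30 and 4 complement genes. Counts were low for C1qa with PRMT5 (WT), at 19 to 135 per library, and for C4b with 4OHT alone, at 8 to 33.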

Other observations

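Among 12 markers of testis somatic cells, 10 were tested, and 3 rose and 4 fell both with PRMT5 (WT) and with PRMT5 (E444Q) against 4OHT alone. Their log2 fold changes ranged from -3.30 to 7.57 with PRMT5 (WT) and from -1.66 to 8.55 with PRMT5 (E444Q). The most abundant, Acta2 and Sox9, are named here, and the genes that rose are not. Acta2, a gene of smooth muscle and myofibroblasts, fell from 88.0 ± 3.51 to 22.3 ± 0.59 CPM (SD, n = 3) with PRMT5 (WT), and Sox9, a Sertoli cell transcription factor that other cells also express, fell from 16.2 ± 1.38 to 6.05 ± 0.51 CPM (SD, n = 3, adjusted p = 4.12e-12 and 4.25e-08 from edgeR). Of the 12 spermatogonial markers, 7 rose and 4 fell in each of these comparisons, and 0 differed between the constructs in the edgeR model. Their sum was 2553 to 2632 CPM with 4OHT alone, 3481 to 3583 CPM with PRMT5 (E444Q) and 3745 to 3786 CPM with PRMT5 (WT), and Dazl and Uchl1 were the most abundant.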
